A study of Chlorocebus aethiops with 12 samples.

Results

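The genes described are 10 regulators of entry into the cell cycle, named through their transcript record IDs on the array. They are the cyclin-dependent kinase (CDK) inhibitors CDKN1A (NM_000389), CDKN1B (NM_004064), CDKN1C (NM_000076), CDKN2B (NM_004936) and CDKN2C (NM_001262), the cyclins CCND1 (NM_053056), CCND2 (NM_001759), CCND3 (NM_001760) and CCNE1 (NM_001238), and MYC (NM_002467). All probes carrying one of these IDs were taken, which gave 16 of 41000 probes, on 52 of 43376 spots that were not controls. These probes belonged to 9 of the 10 genes. CDKN2C matched 0 probes by its ID and was not analysed here. A total of 15 probes passed the filter on dim signals, among 25570 tested in all, and 14 of them were well above background on all 12 arrays.

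The data are from COS-1, an African green monkey kidney line transformed by SV40, in which expression plasmids for V5-tagged mouse CCRP, which acts as a co-chaperone for nuclear receptors, and FLAG-tagged human glucocorticoid receptor were introduced transiently. The receptor was a point mutant, Y30E or Y30F, with glutamate or phenylalanine in place of a tyrosine. Starting 40 h after transfection, cells were given 100 nM dexamethasone, a synthetic glucocorticoid, or the vehicle, 0.1% DMSO, for 6 h. The 4 groups, with 3 arrays each, were Y30E-DEX, Y30E-DMSO, Y30F-DEX and Y30F-DMSO. Descriptions list both constructs for every sample, while another label names the tagged receptor alone for Y30E samples and the tagged CCRP alone for Y30F samples. No group with the unmutated receptor was analysed here, and all 4 groups are described as carrying CCRP. The labels do not give the plasmids' promoters or the share of cells that took them up. Whether a change came from some of the cells or from all cannot be told apart in RNA of whole cultures.

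Cyclins of the D class bind CDK4 and CDK6, and cyclin E binds CDK2. Both complexes phosphorylate the retinoblastoma protein, which releases E2F factors and lets the cell pass from G1 into S phase. Inhibitors of the Cip/Kip family (CDKN1A, CDKN1B and CDKN1C, encoding p21, p27 and p57) bind cyclin-CDK complexes, and those of the INK4 family (CDKN2B and CDKN2C) bind CDK4 and CDK6 themselves. MYC is a transcription factor that drives growth and many cell cycle genes. Large T antigen of SV40, which COS-1 cells make, binds the retinoblastoma protein and p53. Glucocorticoids slow the division of many cell types, and CDKN1C is a known glucocorticoid-induced gene in human cells.

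RNA was hybridised to a 1-colour array of human probes, with 1 sample per array. Each probe is therefore compared with itself between groups. A mismatch between monkey transcript and human probe can lower a signal by an unknown amount. Bright and dim thus describe the signal of a probe and not the amount of its transcript. The share of spots well above background ranged from 60.5% to 67.0% over the arrays. Precision is limited by having 3 arrays per group, and the standard error of a dexamethasone effect had a median of 0.06 (log2) over the 15 probes with either receptor. Dexamethasone changed 506 of 25570 probes with Y30E (1.98%, of which 355 were higher and 151 lower, or 1.39% and 0.591%) and 421 with Y30F (1.65%, of which 325 were higher and 96 lower, or 1.27% and 0.375%), at an adjusted p below 0.05 in limma. The Y30F split became 251 higher and 147 lower with quantile normalization, and 147 higher and 172 lower with median centring. The arrays came on 3 slides, each with its own scan date, so slide and scan cannot be told apart. Slide 3 held the 3 Y30E-DEX arrays and Y30E-DMSO replicate 3, slide 2 held Y30E-DMSO replicates 1 and 2 and Y30F-DEX replicates 2 and 3, and slide 1 held Y30F-DEX replicate 1 and the 3 Y30F-DMSO arrays. A fit with slide as a block takes each dexamethasone effect from the slide that holds both of its groups, where 1 side is a single array, and its estimates below are also the values within slide 3 (Y30E) and slide 1 (Y30F). Signals below are multiples of the 75th-percentile signal of the same array, and differences are on the log2 scale.

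The first question was what 6 h of dexamethasone did to the CDK inhibitors. CDKN1C rose and CDKN1A fell with both receptors, while no probe of CDKN1B or CDKN2B passed the test. Thus 2 of the 5 inhibitor probes changed with each receptor, 1 higher and 1 lower. Over all 15 probes the count was also 2 with each receptor, 1 higher (beside 1.39% of all probes tested with Y30E and 1.27% with Y30F) and 1 lower (beside 0.591% and 0.375%). At an unadjusted p below 0.05 the count was 4 with each receptor, beside 13.9% of all probes with Y30E and 12.9% with Y30F.

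CDKN1C, whose product p57 inhibits G1 cyclin-CDK complexes, gave a bright signal on its single spot. It stood at 22.4, 24.0 and 23.1 times the 75th percentile in Y30E-DEX, against 16.0, 16.4 and 17.7 in Y30E-DMSO. With the other receptor it stood at 25.5, 26.5 and 25.9 in Y30F-DEX, against 17.4, 18.0 and 16.6 in Y30F-DMSO. All 6 arrays with hormone were above all 6 without. The rise was 0.47 ± 0.05 with Y30E (1.39-fold, SE, n = 3 against 3, limma adjusted p = 0.00139). With Y30F it was 0.58 ± 0.05 (1.50-fold, limma adjusted p = 4.18e-04). By p-value the gene ranked 90 of 25570 probes with Y30E and 45 with Y30F. Averaged over both receptors, the rise was 0.53 ± 0.04 (1.44-fold, 95% confidence interval from 1.36 to 1.53, limma adjusted p = 2.95e-05). With slide as a block the Y30F rise was 0.56 and passed (limma adjusted p = 0.0181), the Y30E rise was 0.39 and did not (adjusted p = 0.0659), and the average was 0.47 and passed (adjusted p = 0.00317).

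CDKN1A encodes p21, the inhibitor best known as a target of p53. Its probe stood at 2.25, 2.18 and 2.27 times the 75th percentile in Y30E-DEX, against 2.70, 2.79 and 2.69 in Y30E-DMSO. It stood at 2.15, 2.28 and 2.23 in Y30F-DEX, against 2.97, 2.68 and 2.88 in Y30F-DMSO. Again the hormone and vehicle arrays did not overlap, here with the hormone arrays lower. The log2 change was -0.29 ± 0.05 with Y30E (0.819-fold, SE, n = 3 against 3, limma adjusted p = 0.0159) and -0.36 ± 0.05 with Y30F (0.780-fold, limma adjusted p = 0.00468). Averaged over both receptors it was -0.32 ± 0.04 (0.799-fold, interval from 0.757 to 0.844, limma adjusted p = 4.48e-04). With slide as a block the estimates were -0.27 with Y30E and -0.40 with Y30F, and neither passed (limma adjusted p = 0.281 with Y30E and 0.0720 with Y30F), while their average of -0.34 did (adjusted p = 0.0177). The Y30E call was also lost without any 1 of Y30E-DEX replicates 1 and 2 or Y30E-DMSO replicates 1 and 2, with adjusted p up to 0.0784, though the change kept its size (-0.30 to -0.27 over the 12 fits that leave out 1 array).

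**Figure D1:**
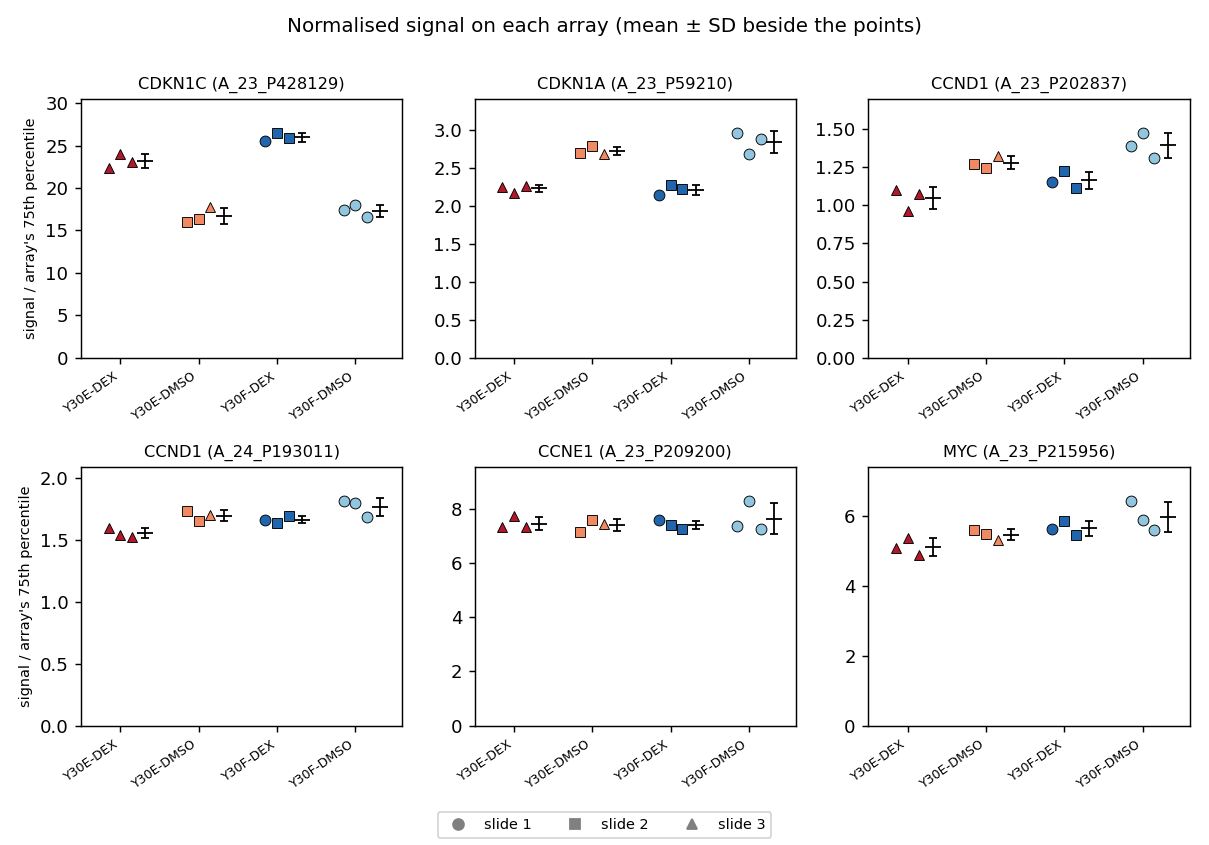
Normalised signal (vertical axis, multiples of the array's 75th-percentile signal, from 0) of 6 probes in the 4 groups, with 1 point per array shaped by slide and the mean ± SD of 3 arrays beside them. CDKN1C lies between 22.4 and 26.5 on the arrays with dexamethasone and between 16.0 and 18.0 on those with DMSO, CDKN1A and the CCND1 probe A_23_P202837 lie lower with dexamethasone than with DMSO of the same receptor, and CCNE1 and MYC overlap.

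The other inhibitors had smaller differences. CDKN1B, encoding p27, has a bright probe (A_24_P81841) at 4.47, 4.93 and 4.48 in Y30E-DEX, against 4.87, 4.79 and 4.83 in Y30E-DMSO. In the same multiples it was at 4.36, 4.20 and 4.37 in Y30F-DEX, against 4.28, 4.51 and 4.44 in Y30F-DMSO. These ranges overlap, and the interval of the average effect ran from 0.916-fold to 1.02-fold. The dimmer CDKN1B probe (A_23_P204696) averaged 0.204 ± 0.015 in Y30E-DEX and 0.229 ± 0.017 in Y30E-DMSO, and 0.242 ± 0.014 in Y30F-DEX and 0.214 ± 0.021 in Y30F-DMSO (SD, n = 3). Its estimates had opposite signs, -0.16 ± 0.09 with Y30E and 0.18 ± 0.09 with Y30F, and neither passed (limma adjusted p = 0.432 and 0.407). CDKN2B, encoding p15 of the INK4 family, averaged 0.435 ± 0.021 in Y30E-DEX and 0.461 ± 0.026 in Y30E-DMSO. With Y30F it averaged 0.478 ± 0.013 under dexamethasone and 0.489 ± 0.021 under DMSO. The interval of its average effect ran from 0.901-fold to 1.02-fold.

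The same question was asked of the cyclins, for which 9 probes were tested. None passed with either receptor alone, and 1 probe of CCND1 passed in the average over both receptors, where 3.57% of all probes did. In that average 1 of the 15 probes was higher, as were 2.51% of all probes, and 2 were lower, as were 1.06%. All 9 estimates of the average lay below 0, at a median of -0.10 (log2), beside 0.01 over all probes tested, of which 44.7% were below 0. Probes of the same gene are not independent, and the estimate nearest 0 was -0.003. With slide as a block 1 of the 8 D-cyclin probes, a dim one of CCND2, was above 0 in the average. By receptor, 6 of the 9 estimates were below 0 with Y30E (51.8% of all probes) and all 9 were with Y30F (42.9%). Of the 8 D-cyclin probes, 1 fewer was below 0 with Y30F under normexp background correction or the slide block and with Y30E under median centring, and 1 more with Y30E under normexp.

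CCND1, the D cyclin encoded at the locus often amplified in tumours, has 3 probes. A_23_P202837 stood at 1.10, 0.964 and 1.07 times the 75th percentile in Y30E-DEX, against 1.27, 1.24 and 1.33 in Y30E-DMSO. It stood at 1.16, 1.23 and 1.11 in Y30F-DEX, against 1.39, 1.48 and 1.31 in Y30F-DMSO. The hormone arrays were below the vehicle arrays with both receptors. Of the 15 probes, this one and that of CDKN1A were lower without overlap with both receptors, as were 1.61% of all probes, and that of CDKN1C was higher without overlap, as were 3.15%. For each receptor taken alone, 3 of the 15 were lower without overlap, as were 11.7% of all probes with Y30E and 5.68% with Y30F, and 1 was higher, as were 10.5% and 9.59%. The log2 difference was -0.29 ± 0.07 with Y30E (limma adjusted p = 0.0612) and -0.26 ± 0.07 with Y30F (limma adjusted p = 0.110, SE, n = 3 against 3). Averaged over both, the probe fell by 0.28 on the log2 scale (0.826-fold, interval from 0.767 to 0.889, limma adjusted p = 0.00858). With slide as a block the average was -0.31 and did not pass (adjusted p = 0.0959).

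The other CCND1 probes had smaller estimates. A_24_P193011, the brightest of the 3, stood at 1.60, 1.54 and 1.52 in Y30E-DEX, against 1.73, 1.65 and 1.70 in Y30E-DMSO. It stood at 1.65, 1.64 and 1.69 in Y30F-DEX, against 1.81, 1.80 and 1.68 in Y30F-DMSO, so the arrays overlapped with Y30F alone. Its average effect was -0.11 ± 0.03 (0.929-fold, interval from 0.883 to 0.978) and did not pass (limma adjusted p = 0.146). Had each record been represented by its brightest probe, CCND1 would have had no call. The dimmest probe, A_24_P124550, had an average effect of -0.16 ± 0.09 (adjusted p = 0.498). The estimates of the 3 probes thus had the same sign with each receptor, but with slide as a block A_24_P124550 turned to 0.03 with Y30F. Whether the probes differ in size of effect was not tested.

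CCND3 has 2 probes. The brighter (A_23_P361773) averaged 2.84 ± 0.08 in Y30E-DEX and 2.99 ± 0.10 in Y30E-DMSO, and 2.74 ± 0.13 in Y30F-DEX and 2.94 ± 0.08 in Y30F-DMSO (SD, n = 3). The dimmer (A_23_P214464) averaged 1.09 ± 0.02 in Y30E-DEX and 1.17 ± 0.07 in Y30E-DMSO, and 1.06 ± 0.04 in Y30F-DEX and 1.14 ± 0.12 in Y30F-DMSO. Their average effects were -0.09 ± 0.04 and -0.10 ± 0.05 (log2), similar in size and both without a call (limma adjusted p = 0.303 and 0.466). CCND2 was measured by 3 dim probes. The brightest (A_24_P270235) averaged 0.234 ± 0.016 in Y30E-DEX and 0.240 ± 0.017 in Y30E-DMSO, and 0.218 ± 0.013 in Y30F-DEX and 0.255 ± 0.016 in Y30F-DMSO. Its Y30F difference of -0.23 ± 0.08 had an unadjusted p of 0.0136 and did not pass (limma adjusted p = 0.234), and the slide block gave -0.14. A_24_P278747 ranged from 0.0878 to 0.189 in Y30E-DEX and from 0.107 to 0.116 in Y30E-DMSO. In Y30F-DEX it ranged from 0.0808 to 0.0871, and in Y30F-DMSO from 0.0700 to 0.214, with the highest value on replicate 2. That spread leaves an interval of 0.702-fold to 2.16-fold for Y30E and 0.411-fold to 1.27-fold for Y30F. A_23_P139881 was close to background, at 0.0319 to 0.0456 on the 11 arrays on which it was well above background. Over all arrays it averaged 0.0391 in Y30E-DEX and 0.0368 in Y30E-DMSO, and 0.0346 in Y30F-DEX and 0.0373 in Y30F-DMSO. With Y30E the means of this probe and A_24_P278747 were thus higher under hormone and that of A_24_P270235 lower, all without a call.

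CCNE1, the partner of CDK2 at the start of S phase, stood at 7.32, 7.72 and 7.31 in Y30E-DEX, against 7.14, 7.58 and 7.44 in Y30E-DMSO. It stood at 7.57, 7.38 and 7.26 in Y30F-DEX, against 7.36, 8.29 and 7.24 in Y30F-DMSO. Hormone and vehicle arrays overlapped with both receptors, and the 3 Y30F-DEX arrays lay within the range of Y30F-DMSO. The average effect was -0.01 ± 0.04, with an interval from 0.929-fold to 1.06-fold.

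MYC, a gene that glucocorticoids lower in lymphoid cells, has a bright probe (A_23_P215956) and a second one (A_24_P38363) with no array well above background. The bright probe stood at 5.09, 5.39 and 4.89 in Y30E-DEX, against 5.60, 5.50 and 5.31 in Y30E-DMSO. It stood at 5.63, 5.87 and 5.46 in Y30F-DEX, against 6.44, 5.89 and 5.62 in Y30F-DMSO. Hormone and vehicle arrays overlapped with both receptors, and the average effect of -0.09 ± 0.04 did not pass (limma adjusted p = 0.432, interval from 0.879-fold to 1.01-fold). The second probe had processed signals of 4.74 to 13.4 on the 12 arrays and was not tested.

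**Figure D2:**
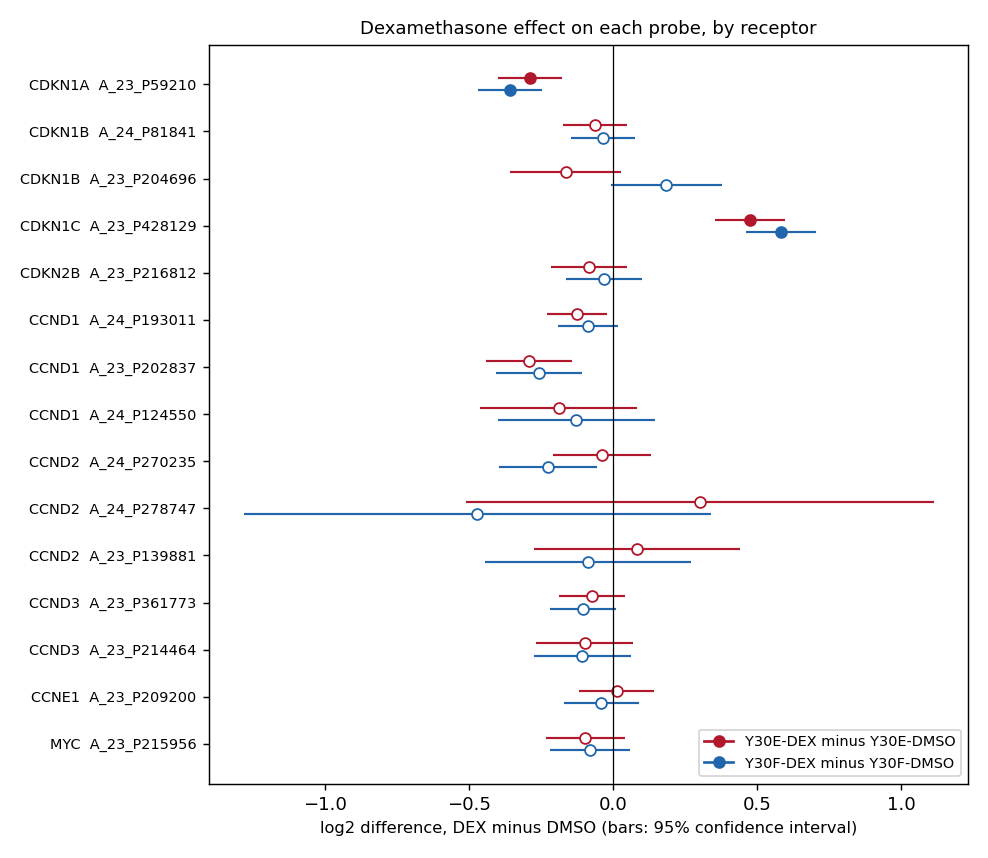
Dexamethasone effect (horizontal axis, log2 difference of DEX minus DMSO) for the 15 tested probes (rows), with Y30E above Y30F in each row. Bars are 95% confidence intervals and filled points passed the test (adjusted p below 0.05). The filled points are CDKN1A at -0.29 (Y30E) and -0.36 (Y30F) and CDKN1C at 0.47 (Y30E) and 0.58 (Y30F), and the widest bars belong to the CCND2 probe A_24_P278747.

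Across the 15 probes the median dexamethasone effect was -0.08 with Y30E and -0.09 with Y30F (log2), beside -0.01 with Y30E and 0.02 with Y30F over all probes tested. Estimates were below 0 with both receptors for 10 of the 15 probes, and for 23.5% of all probes tested. Of the 13 probes without a call, 7 with Y30E and 6 with Y30F had an interval that lay within 1.2-fold in either direction, and 12 with each receptor lay within 1.4-fold. The exception was A_24_P278747 of CCND2 in both cases. These intervals are from the fit without slide, and the slide block gave larger standard errors. For the bright CDKN1B probe the standard error was 0.08 with the block and 0.05 without it, with either receptor. For A_24_P278747 with Y30F it was 0.56 with the block and 0.37 without it.

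The probes of CDKN1A, CCND1, CDKN1B and MYC were each printed at 10 positions per array, which gives the technical error of a spot. For the CDKN1A probe, spots within an array had an SD of 0.03 to 0.09 (log2), and arrays within a group an SD of 0.03 to 0.07. At the 8 positions with no outlier spot on the Y30E arrays, the change ranged from -0.31 to -0.25. At the 8 such positions on the Y30F arrays it ranged from -0.38 to -0.31. For CCND1 (A_23_P202837) all 10 positions were lower, by -0.36 to -0.21 with Y30E and by -0.33 to -0.20 with Y30F. The bright MYC probe was lower at each of 9 usable positions with Y30E (-0.15 to -0.06) and at each of 8 with Y30F (-0.14 to -0.04). The bright CDKN1B probe, which had no call, was also lower at each of 8 usable positions with Y30E (-0.12 to -0.01). With Y30F it was lower at each of 7 (-0.07 to -0.01). Spots of one array share its RNA, so they show the precision of the array and are no replicates of the treatment. For MYC the arrays of a group had an SD of 0.04 to 0.10, beside effects of -0.10 with Y30E and -0.08 with Y30F.

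**Figure D3:**
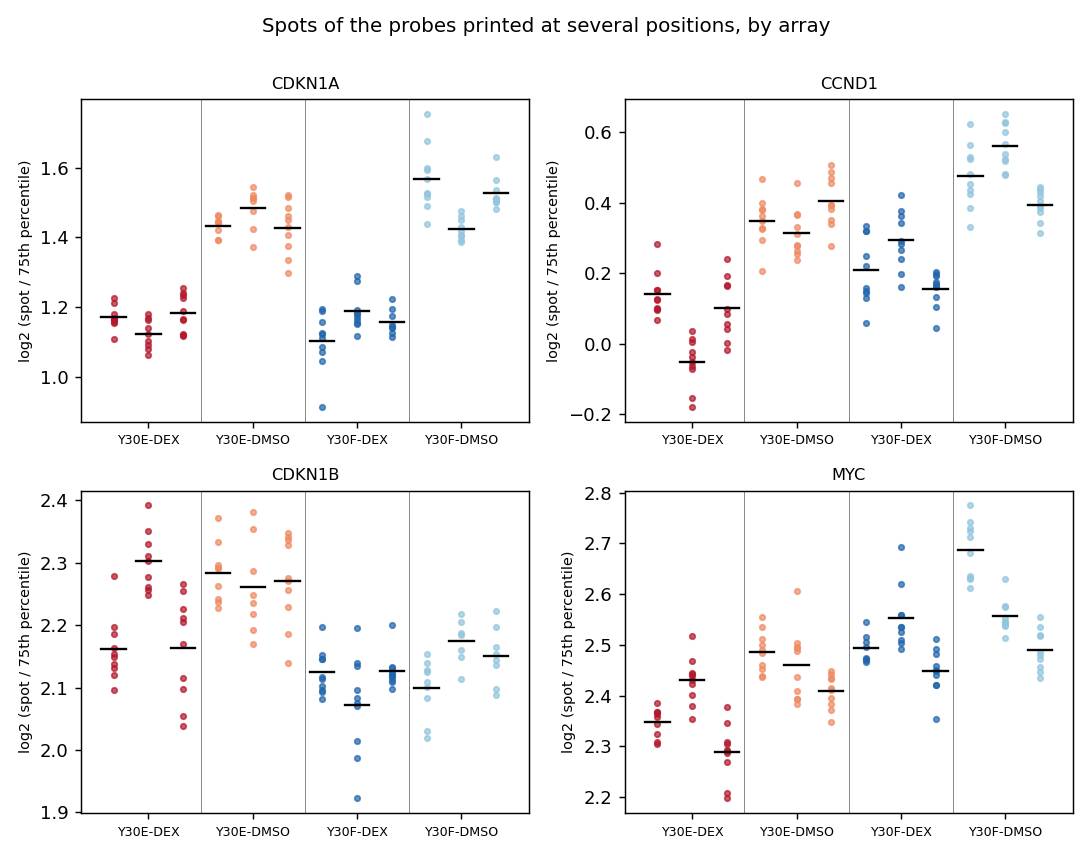
Log2 signal of each spot relative to the array's 75th percentile (vertical axis, which does not start at 0) for the 4 probes printed at 10 positions, with 3 arrays per group side by side and a bar at each array's mean. Outlier spots are left out. For CDKN1A the array means lie near 1.1 to 1.2 with dexamethasone and 1.4 to 1.6 with DMSO, while for CDKN1B the array means of hormone and vehicle groups overlap with both receptors.

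Next, the receptor mutants were compared directly, in the difference of their dexamethasone effects (Y30E effect minus Y30F effect). None of the 15 probes passed, and 0 of 25570 did in all (limma, 0% called, with an unadjusted p below 0.05 for 1 of the 15 and for 2777 of all probes, or 10.9%). The count over all probes depended on single arrays and on slide, with 1262 calls if Y30F-DEX replicate 1 is omitted, 138 if Y30E-DMSO replicate 3 is, and 23 with the slide block, while 0 of the 15 passed in any of these fits. For CDKN1C the effects were 0.47 with Y30E and 0.58 with Y30F, and the difference was -0.11 ± 0.08, an interval from 0.823-fold to 1.05-fold. For CDKN1A they were -0.29 with Y30E and -0.36 with Y30F, and the difference was 0.07 ± 0.07, from 0.941-fold to 1.17-fold. For CCND1 (A_23_P202837) the difference was -0.04 ± 0.10, from 0.843-fold to 1.13-fold. For MYC it was -0.02 ± 0.09, from 0.864-fold to 1.13-fold. Under the slide block the difference was -0.17 for CDKN1C, 0.14 for CDKN1A, -0.07 for CCND1 (A_23_P202837) and 0.03 for MYC, whose sign turned, and the limma adjusted p was 0.999 for each. In the fit without slide, the intervals of 12 of the 15 probes lay within 1.4-fold either way. The probe with an unadjusted p below 0.05 was the dim one of CDKN1B (A_23_P204696), at -0.35 ± 0.12 (unadjusted p = 0.0167, limma adjusted p = 0.359). The bright CDKN1B probe gave -0.03 ± 0.07, and whether the gene's probes differ was not tested.

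Levels were also compared between receptors under the same treatment. No slide held arrays of both receptors under one treatment, so there is no value within a slide, and the fixed slide block links the receptors through slide 2. Under dexamethasone 0 of the 15 probes and 0 of 25570 in all passed in limma (0% called, with an unadjusted p below 0.05 for 5 of the 15 and for 13.5% of all probes). Those 5 were all lower in Y30E-DEX. Without overlap stood 2 higher and 6 lower of the 15, as did 10.5% and 10.1% of all probes. CDKN1C differed by -0.16 ± 0.05 (0.892-fold, unadjusted p = 0.0131, limma adjusted p = 0.272) and MYC by -0.14 ± 0.06 (0.906-fold, adjusted p = 0.357). CDKN2B, CCND1 (A_23_P202837) and the dim probe of CDKN1B differed by -0.14, -0.16 and -0.25. With slide as a block the differences were -0.31 for CDKN1C, -0.29 for CDKN2B, -0.24 for CCND1 (A_23_P202837), -0.09 for the dim probe of CDKN1B and -0.08 for MYC, with limma adjusted p of 0.903 for CDKN1C and 0.993 for the other 4.

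Under DMSO 0 of the 15 probes passed, beside 0.00782% of all probes tested, or 2 (limma). Median centring gave 1447 calls over all probes, 177 higher and 1270 lower in Y30E-DMSO, and leaving out Y30F-DEX replicate 1 gave 605. The unadjusted p was below 0.05 for 1 of the 15, the bright CDKN1B probe, which averaged 4.83 ± 0.04 in Y30E-DMSO and 4.41 ± 0.12 in Y30F-DMSO (SD, n = 3). Its difference was 0.13 ± 0.05 (1.10-fold, limma adjusted p = 0.314). CDKN1C averaged 16.7 ± 0.9 in Y30E-DMSO and 17.3 ± 0.7 in Y30F-DMSO, and CDKN1A averaged 2.73 ± 0.06 in Y30E-DMSO and 2.84 ± 0.14 in Y30F-DMSO. The CDKN1A difference was -0.06 ± 0.05, and under median centring it was -0.24 and passed (limma adjusted p = 0.0492). Median centring shifts all probes of a comparison by the same amount, so the move from -0.06 to -0.24 is not particular to CDKN1A. Under the slide block the differences were 0.16 for the bright CDKN1B probe, -0.14 for CDKN1C, -0.12 for CDKN1A and -0.11 for MYC, and none passed. The MYC arrays did not overlap, at most 5.60 in Y30E-DMSO and at least 5.62 in Y30F-DMSO, and its difference of -0.13 ± 0.06 did not pass (adjusted p = 0.419). Without overlap stood 1 probe higher and 1 lower of the 15, as did 13.4% and 5.82% of all probes tested.

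**Figure D4:**
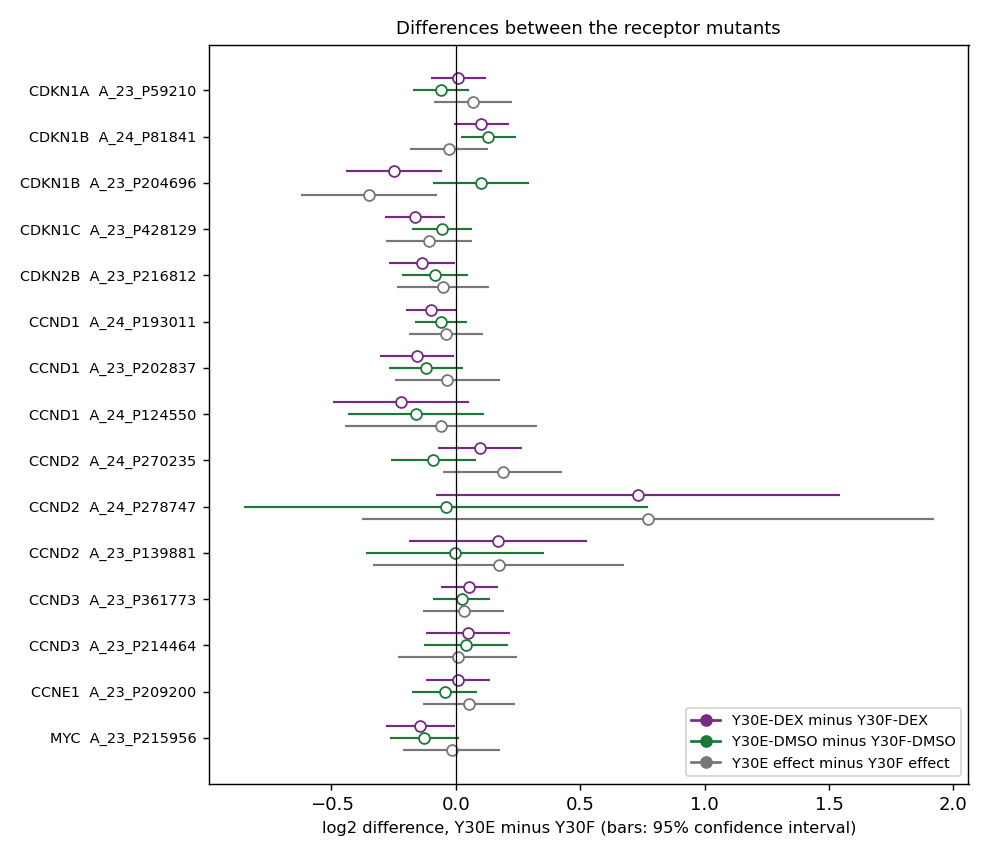
Differences between the receptors (horizontal axis, log2, Y30E minus Y30F) for the 15 tested probes (rows), with bars for 95% confidence intervals. Purple is Y30E-DEX minus Y30F-DEX, green is Y30E-DMSO minus Y30F-DMSO and grey is the Y30E effect of dexamethasone minus the Y30F effect. All points are open, since none passed the test, and the largest estimates, 0.77 and 0.73, belong to the CCND2 probe A_24_P278747, whose bars reach across 0.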

How the data were processed

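Per the labels' protocols, Cy3-labelled RNA of 12 samples was put on Agilent 4x44 arrays of human probes. The intensity used was the processed green signal deposited by the authors (Agilent Feature Extraction 12.0.0.7, per the file headers, and version 12 per the submitters' processing notes), background-subtracted and detrended within each array but not normalized between arrays. The deposited spot flags and median signal intensities were used as well. The series' value table differed from the scanner files at 0 spots. Slides were read from the file headers.

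From these values, log2 signals were reduced by the 75th percentile of the array's 43376 spots other than controls (706 to 876), outlier spots (89 to 154 per array) were left out, and spots of a probe were averaged. The filter asked that 0.5 or more of a probe's spots were well above background on every array of some group, which left 25570 probes. The test was limma 3.58.1 in R 4.3.3 (lmFit and eBayes, 4 group means, 8 degrees of freedom left), and p-values were adjusted by Benjamini-Hochberg over the tested probes with a threshold of 0.05. "Changed", "rose" and "fell" refer to this threshold. The scripts were tested on simulated data. Whether replicates were separate cultures is not in the labels, so the p-values speak only to the array-to-array spread, possibly technical.

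The genes were chosen with earlier results of these data known. By the rule for named genes, all of their probes are reported, and other records only by likeness to a gene that changed. The files pair no other record ID with a gene name, so marker genes of the cell type, other cell cycle genes and the transfected genes were not used here, and neither were probe or promoter sequences. Alternatives were median centring, quantile normalization, normexp (offset 50, on median signals), the value table, no filter, 1 probe per record, slide as a fixed or random block (statmod 1.5.0), arrays of 1 slide, leaving out slide 2, the replicate number as a block and leaving out each array.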

Additional observations from a re-analysis of the deposited data

How the results depend on the processing

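The 7 calls (CDKN1C and CDKN1A with each receptor and in the average, CCND1 in the average) kept their sign in all 157 refits run on them and passed in 136. Of the other 21, 14 came from fits with a slide block or without some slides. Fewer arrays behind an effect and differences between slides cannot be told apart there, and the cause was not tested. The remaining 7 concerned CDKN1A with Y30E, under median centring (limma adjusted p = 0.124), no filter (0.0509), the replicate block (0.0551) and in 4 fits without 1 array, and their cause was not tested. Among results without a call, 2 passed under median centring alone, CCND1 (A_23_P202837) with Y30F at -0.39 and CDKN1A under DMSO at -0.24. Median centring moves all probes of a comparison by the same amount, which was -0.13 for the Y30F effect.

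Member probes called with Y30E were 1 under median centring, no filter or the replicate block and 0 with the slide block, slide 3 alone or without slide 2, with 1 to 2 when leaving out 1 array. With Y30F they were 1 with the slide block and 0 with slide 1 alone or without slide 2. In the average they were 1 without slide 2, and under DMSO 1 with median centring. Counts over all probes for Y30E were 302 without the filter, 229 with the slide block, 59 within slide 3, 97 without slide 2 and 220 to 667 leaving out 1 array (220 and 247 without Y30E-DMSO replicates 1 and 2, and 267, 287 and 278 without Y30E-DEX replicates 1, 2 and 3). For Y30F they were 150 with the slide block, 7 within slide 1, 48 without slide 2 and 252 to 1488 (1488 without Y30F-DEX replicate 1 and 252 without replicate 3). For the average they were 577 with median centring, 445 with the slide block, 246 without slide 2 and 654 to 1005. For the difference of effects they were 1 with median centring or the replicate block, 23 with the slide block, 7 without slide 2 and 0 to 1262 (1262 if Y30F-DEX replicate 1 is omitted, 138 if Y30E-DMSO replicate 3 is, and 1 if Y30E-DEX replicate 3 is). Under DMSO they were 1447 with median centring (177 higher), 0 with normexp or the replicate block, 4 without the filter, 76 without slide 2 and 0 to 605 (605 if Y30F-DEX replicate 1 is omitted, 33 if Y30E-DMSO replicate 3 is, and 13 if Y30F-DMSO replicate 2 is). Under dexamethasone they were 4 with quantile normalization, 2 with median centring or without slide 2, 1 without the filter, 3 with 1 probe per record, 24 with the slide block and 0 to 73 (73 if Y30F-DEX replicate 1 is omitted and 48 if Y30E-DMSO replicate 3 is).

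Same-numbered replicates of different groups did not deviate together (correlations of -0.42 to 0.26 over 18 pairs), and 2 of 12 arrays correlated best with their own number, so the number was not taken to pair samples. Apart from the Y30E call of CDKN1A, the replicate block changed no call on these genes. Dim probes limit CCND2 and the second MYC probe.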

Other observations

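The probes of other records whose pattern over the 12 arrays was most like that of CDKN1C or CDKN1A were looked up among 25520 probes, as a description of these arrays. The files do not pair their IDs with gene names. The probes of NM_199235 and NM_001453 were the most like CDKN1C, with Pearson r of 0.984 and 0.983, and their average dexamethasone effects were 0.39 and 0.62 (log2). Those most like CDKN1A were of NM_019113 and NM_018933, with r of 0.972 and 0.968 and average effects of -0.57 and -1.88. For CCND1 (A_23_P202837) the highest r was 0.948. The arrays share the 4 groups and 3 slides, so a high r holds both.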
